A study of Homo sapiens with 12 samples.

Results

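The transcripts described are those of 47 core components of the spliceosome, out of 58051 genes in the tables: proteins of the U1 and U2 small nuclear ribonucleoprotein particles (snRNPs), the Sm ring, the SF3 and U2AF factors, the tri-snRNP, the PRP19 complex and the DEAH helicases. The members were listed by name and matched to the tables by Ensembl identifier. No measured value entered the rule, but the list was made with earlier results of these data known. All 47 were found and all 47 passed the filter on low counts, which kept 27915 genes.

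The spliceosome removes introns from pre-messenger RNA. U1 pairs with the 5′ splice site, U2AF and SF1 mark the 3′ end of the intron, and U2 is placed on the branch point with the help of SF3a and SF3b. The tri-snRNP then brings the catalytic core, the PRP19 complex stabilises the active site, and helicases drive the steps between one state and the next. Reads from introns come mostly from RNA that has not yet been spliced, so that the share of a gene's counts that lies in its introns is a measure of how much of its RNA is unspliced or retained.

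HCT116 is an established line of human colon carcinoma cells. The cells received an siRNA, a short duplex that lowers the RNA it matches, against PFDN2 (siPFDN2), against PFDN5 (siPFDN5) or a control (siControl). PFDN2 and PFDN5 are subunits of prefoldin, which hands new actin and tubulin chains to a chaperonin. Serum starvation began 24 h after the siRNA was added and lasted 48 h, and cells were harvested at that point or after 90 min with serum. Every group was of the same line and had been starved, and each of the 6 groups had 2 libraries. Nothing in the labels says whether these came from separate cultures, so the p-values measure the spread between these libraries, which may be technical. Values in CPM, counts scaled to a common library size, are shares of a library's RNA, and a change of one transcript and an opposite change of the rest cannot be told apart.

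The sense strands of the siRNAs are shown because 1 of them shares a long stretch with a member. Capitals mark bases 12 to 18, counted from the 5′ end, which pair with the seed of the guide strand.
siControl: cguacgcggaaUACUUCGa
siPFDN2: cagccuagugaUCGAUACa
siPFDN5: agagaagacagCUGAGGAu
In the longest GENCODE 29 transcript of each gene, the 7 capital bases of siPFDN5 occurred in 21 of 47 members (44.7%) and in 33.6% of 27632 genes tested. The bases of siPFDN2 occurred in 1 member, PRPF8 (2.13%, against 1.96% of the genes), and those of siControl in 6 members (12.8%, against 3.92%). A match of this kind is a description and not a site of action.

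The targeted genes were checked first. PFDN2 was found at 11.5 and 11.2 CPM before serum and 19.5 and 16.3 after it in siControl, 7.55 and 8.49 before and 8.73 and 9.47 after in siPFDN2, and 21.8 and 21.1 before and 23.1 and 28.7 after in siPFDN5. It was thus lower under siPFDN2 than in siControl at both times, and higher under siPFDN5. Under siPFDN2 it was at 70.9% of siControl before serum and 50.8% after it (edgeR adjusted p = 0.442 and 0.772). Under siPFDN5 the adjusted p-values were 0.104 and 0.108, so none of these differences passed the test. PFDN5 was found at 76.8 and 68.9 CPM before serum and 67.9 and 74.0 after it in siControl, 76.2 and 66.9 before and 81.8 and 81.1 after in siPFDN2, and 41.0 and 44.2 before and 67.5 and 68.6 after in siPFDN5. It was lower in the siPFDN5 libraries before serum, at 58.4% of siControl (edgeR adjusted p = 0.104). After serum the libraries labelled siPFDN5 overlapped those of siControl, so the label is not borne out there by its target. For this reason they are called the siPFDN5-labelled pair after serum, and every serum comparison in siPFDN5 sets them against libraries in which PFDN5 was low.

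Gene-body counts (introns included) summed to between 59784425 and 136504590 per library. The markers of colon epithelium were above 1 CPM in every library for 8 of 9 genes, while all 4 leukocyte and both hepatocyte markers stayed under 1 CPM. Of 5 fibroblast markers 4 stayed under 1 CPM and COL1A1 was at 3.97 to 15.7 CPM, and of 3 endothelial markers 2 stayed under 1 CPM and VWF reached 1.74 CPM. The pair of siPFDN2 libraries before serum stood apart: over 12113 genes the log2 differences between its replicates had an SD of 0.68 and 0.12 to 0.30 in the other groups. In replicate 2 of that pair the log2 deviation from the other libraries rose with GC content, with a rank correlation of 0.79 over the 47 members and 0.69 over 27632 genes. For 8 members the replicates of that pair differed by more than 2-fold, and for none in any other group. That library was the highest of the 12 for 18 members and the lowest for 19. It is called the GC-deviant library.

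**Figure D1:**
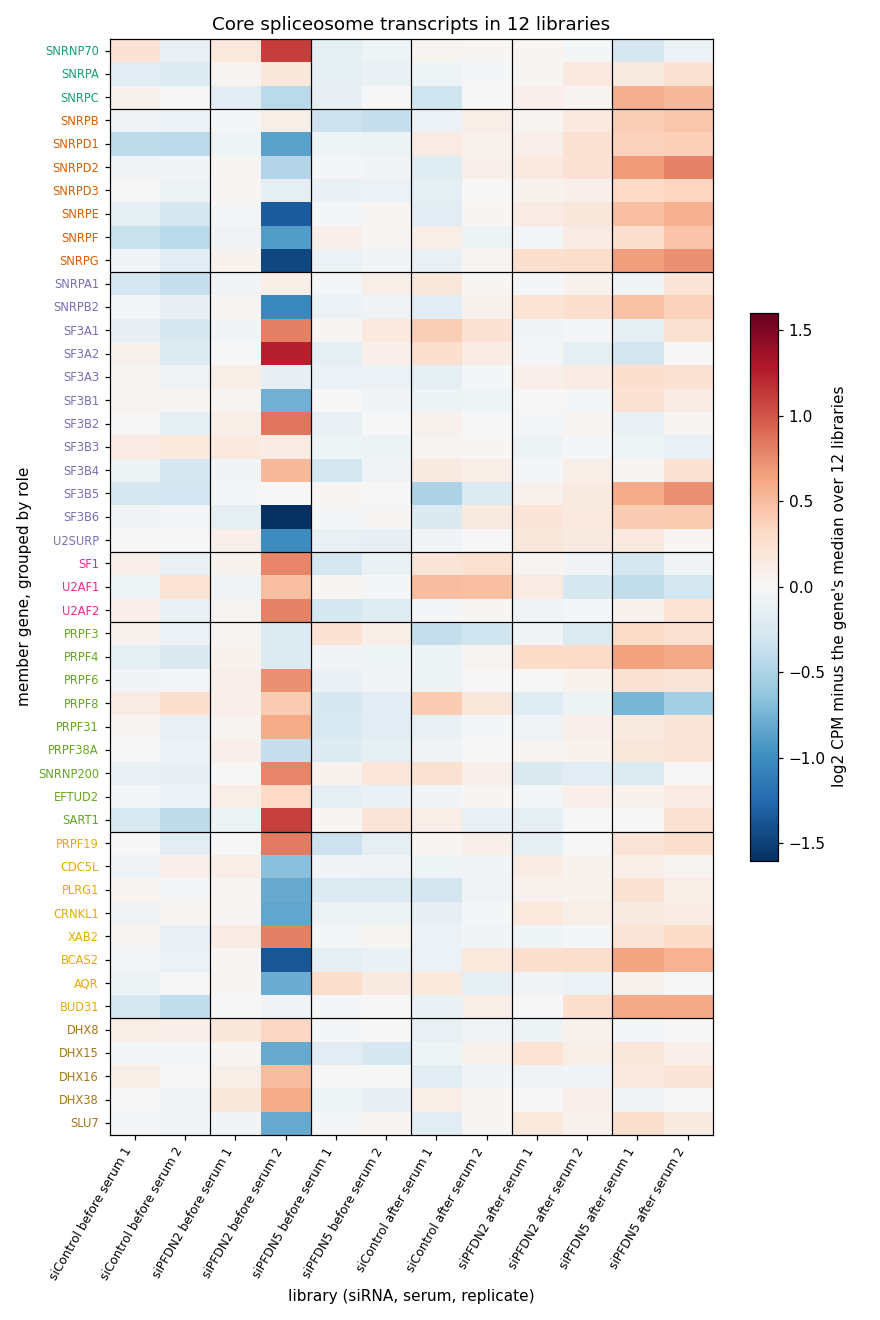
Heat map of the 47 members (rows, grouped by role and coloured by it) in the 12 libraries (columns), as log2 CPM minus the gene's median over the libraries. Replicate 2 of siPFDN2 before serum departs in both directions, with GC-rich members such as SNRNP70 high and GC-poor ones such as SNRPG low, and the siPFDN5-labelled pair after serum is high for the Sm genes and low for PRPF8.

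PRPF19, CDC5L and U2AF2 were measured first for abundance. None of them passed the edgeR test in any of the 12 comparisons of abundance with all libraries in the fit. In some comparisons this depended on the libraries. With 1 library left out, log2 fold changes over serum in siPFDN5 ran from 0.38 to 0.57 for PRPF19 and from 0.30 to 0.49 for U2AF2. Whether these 2 genes then passed varied with the library left out, and each such fit leaves 1 library in a group. PRPF19 is the ubiquitin ligase that gives the PRP19 complex its name (ENSG00000110107, chr11:60890730-60906588 on the minus strand, GRCh38). Its level was 90.2 and 79.6 CPM before serum and 91.5 and 95.4 after it in siControl, 89.1 and 159.9 before and 80.5 and 89.5 after in siPFDN2, and 71.0 and 81.1 before and 103 and 107 after in siPFDN5. Leaving aside replicate 2 of siPFDN2 before serum, the highest of its values were those of the siPFDN5-labelled pair after serum, and the lowest came from siPFDN5 before serum. Its level in the siPFDN5-labelled pair after serum was 112% of that of siControl after serum, with a log2 fold change of 0.17 (SE 0.22, edgeR adjusted p = 0.699), and both libraries were above both of siControl. Within siPFDN5 the log2 fold change over serum was 0.47 (SE 0.23, adjusted p = 0.186), and in siControl it was 0.14 (SE 0.22, adjusted p = 0.910). In siPFDN2 it was −0.55 (SE 0.23, adjusted p = 0.150), and without the GC-deviant library it was −0.07 (adjusted p = 0.856).

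CDC5L is the Myb-related scaffold of the same complex (ENSG00000096401, chr6:44387525-44450426, plus strand). Its level was 79.2 and 87.3 CPM before serum and 78.5 and 80.3 after it in siControl, 88.8 and 52.0 before and 89.5 and 86.0 after in siPFDN2, and 80.1 and 79.4 before and 89.1 and 84.7 after in siPFDN5. Outside the GC-deviant library its values lay within 78.5 to 89.5 CPM, the narrowest spread of the 3. Its log2 fold change was −0.06 (SE 0.21) under siPFDN5 before serum and 0.13 (SE 0.21, adjusted p = 0.75) in the siPFDN5-labelled pair after serum, each against siControl. Over serum its log2 fold changes were −0.07 in siControl, 0.32 in siPFDN2 and 0.12 in siPFDN5, with adjusted p-values of 0.964, 0.319 and 0.719. Without the GC-deviant library the value of CDC5L in siPFDN2 was −0.0177 (adjusted p = 0.961).

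U2AF2 is the large U2AF subunit, which binds the polypyrimidine tract (ENSG00000063244, chr19:55654146-55674715, plus strand). Its level was 107 and 94.3 CPM before serum and 99.4 and 103 after it in siControl, 105 and 176 before and 97.0 and 100.2 after in siPFDN2, and 83.5 and 88.5 before and 105 and 118 after in siPFDN5. Both siPFDN5 libraries before serum lay below both of siControl, with a log2 fold change of −0.23 (SE 0.21, adjusted p = 0.714). The siPFDN5-labelled pair after serum lay above both siControl ones, with a log2 fold change of 0.14 (SE 0.21, adjusted p = 0.725). These opposite offsets gave a serum response in siPFDN5 of 0.38 (SE 0.21, adjusted p = 0.247), against 0.00 (SE 0.21) in siControl.

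Exon counts alone, without introns, were as follows. PRPF19 had 104 and 95 CPM before serum and 112 and 111 after it in siControl, 104 and 209 before and 93.7 and 107 after in siPFDN2, and 85.5 and 97.6 before and 119.6 and 123 after in siPFDN5, in exon CPM. CDC5L had 90.1 and 103 CPM before serum and 92.9 and 92.8 after it in siControl, 102 and 64.7 before and 103 and 101 after in siPFDN2, and 92.2 and 92.7 before and 103 and 97.1 after in siPFDN5. U2AF2 had 123 and 111 CPM before serum and 119.7 and 117 after it in siControl, 119.7 and 222 before and 110.4 and 118 after in siPFDN2, and 98.4 and 105 before and 121 and 135 after in siPFDN5. In each of the 3 genes the departure of replicate 2 of siPFDN2 before serum was again the largest.

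The intron shares of the 3 genes were lowest in the siPFDN5-labelled pair after serum. PRPF19 had an intron share of 3.87% and 3.78% before serum and 3.52% and 3.17% after it in siControl, 3.47% and 2.02% before and 3.68% and 2.63% after in siPFDN2, and 3.56% and 2.89% before and 2.0% and 1.89% after in siPFDN5. Its introns held 147 and 173 counts in the siPFDN5-labelled pair after serum, out of 7353 and 9142 for the gene body. The log2 change of its intron to exon ratio against siControl was −0.80 (SE 0.33, edgeR adjusted p = 0.043), which is 0.575 times the ratio in siControl.

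CDC5L had an intron share of 5.37% and 4.94% before serum and 6.84% and 3.94% after it in siControl, 5.30% and 6.90% before and 4.90% and 4.10% after in siPFDN2, and 7.75% and 5.78% before and 2.57% and 2.49% after in siPFDN5. The siControl values after serum differed from each other by more than those of the libraries labelled siPFDN5, yet the groups did not overlap. CDC5L and U2AF2 overlap other annotated genes (1 and 2), so they were tested only in a fit that kept overlapping genes. There the log2 change for CDC5L was −1.08 (SE 0.31, edgeR adjusted p = 0.024).

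U2AF2 had an intron share of 4.66% and 4.71% before serum and 5.23% and 5.22% after it in siControl, 5.60% and 5.87% before and 5.79% and 3.93% after in siPFDN2, and 5.57% and 4.67% before and 2.70% and 2.67% after in siPFDN5. Both libraries of the siPFDN5-labelled pair after serum lay below all the other libraries of this gene. The log2 change against siControl after serum was −1.0 (SE 0.25, edgeR adjusted p = 0.020), a ratio 0.50 times that of siControl. Over serum within siPFDN5 the changes were −0.96 (adjusted p = 0.011) for U2AF2, −1.47 (adjusted p = 0.0058) for CDC5L and −0.74 (adjusted p = 0.060) for PRPF19.

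The scaling and several single libraries bear on these values. When exon and intron counts were scaled separately, which sets the middle of all genes near no change, the changes against siControl after serum were 0.14 for PRPF19, −0.31 for CDC5L and −0.23 for U2AF2, with edgeR adjusted p-values of 0.792, 0.30 and 0.507. Over serum within siPFDN5 they were then 0.29, −0.62 and −0.11, and only CDC5L passed the test (adjusted p = 0.041). Without siControl replicate 1 after serum the changes against siControl were −0.72 for PRPF19, −0.66 for CDC5L and −1.0 for U2AF2, with adjusted p-values of 0.109, 0.128 and 0.068. All 3 calls were also lost without either library of the siPFDN5-labelled pair after serum. The adjusted p-values were then 0.135 and 0.179 for PRPF19, 0.112 and 0.106 for CDC5L and 0.111 and 0.0949 for U2AF2, without replicate 1 and replicate 2. The call of PRPF19 was lost as well without either siControl library before serum (0.0616 and 0.0613) and without either siPFDN5 library before serum (0.0619 and 0.0620). Over serum in siPFDN5, the call of CDC5L was lost without siPFDN5 replicate 1 before serum (0.0628). That of U2AF2 was lost without the same library (0.0950) and without either library after serum (0.0637 and 0.0632).

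**Figure D2:**
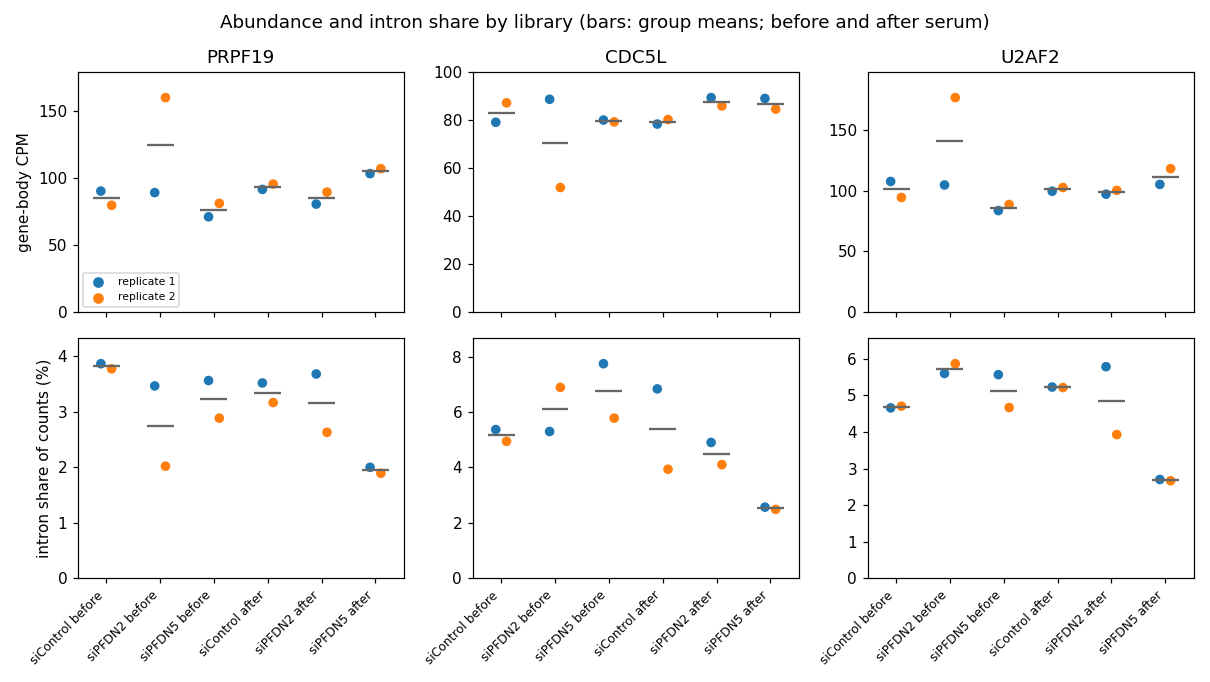
Gene-body CPM (top) and the percentage of gene-body counts in introns (bottom) of PRPF19, CDC5L and U2AF2 in the 6 groups, before and after serum. Points are libraries, coloured by replicate, and bars are group means. Abundance differs mainly in replicate 2 of siPFDN2 before serum, while the intron share is lowest in the siPFDN5-labelled pair after serum for all 3 genes (2.0% and 1.89% for PRPF19).

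Across all 47 members no knockdown comparison gave a call. The counts were 0 of 47 for siPFDN2 against siControl before serum (0% of all genes tested were called) and 0 after serum (0%). They were also 0 for siPFDN5 against siControl before serum (0.00716%) and after serum (0.00358%), and for siPFDN5 against siPFDN2 before serum (0.0788%) and after it (0.0179%). By DESeq2, 8 members were higher (3.28% of all genes) and 1 lower (3.68%) in the siPFDN5-labelled pair after serum than in siControl, 9 were lower in siPFDN5 than in siPFDN2 before serum (8.07%), and the other comparisons gave 0. At an unadjusted p under 0.05, the edgeR counts in the 6 comparisons, in the order above, were 18, 4, 3, 11, 15 and 8 members, beside 11.3%, 6.26%, 12.3%, 21.6%, 29% and 7.92% of all genes. Without the GC-deviant library the 18 became 8 (6.64% of all genes) and the 15 became 12 (22.2%).

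The spread of the GC-deviant pair enters the fit of all groups. When either replicate of siPFDN2 before serum was left out, 25 members were called higher and 4 lower in the siPFDN5-labelled pair after serum than in siControl. Without replicate 2, 13.8% of all genes tested were called higher and 10.1% lower. After removal of the GC trend from all libraries, there were 12 higher members and 2 lower ones, beside 6.81% and 6.38% of all genes. The median log2 fold change of the members was 0.24 in the fit of all libraries, and that of all genes was −0.04. The value was positive for 36 of 47 members and for 46.0% of all genes. Both libraries lay above both of siControl for 33 members (30.6% of all genes) and below both for 8 (32.7%). Scaled by library size only, the medians were 0.08 for the members and −0.20 for all genes. The summed level of the colon epithelial markers had a group mean of 3166 CPM in these libraries and 2488 CPM in siControl after serum, and its part in the result was not tested.

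The medians of the members lay closer to those of all genes in the other comparisons with siControl. Under siPFDN2 after serum the median was 0.07, with −0.05 for all genes, and it was −0.05 under siPFDN5 before serum, with 0.01 for all genes. Before serum siPFDN2 had a median of 0.10, and its range from −0.67 to 0.95 carries the GC-deviant library, without which the median was 0.09.

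The U1 proteins are SNRNP70, SNRPA and SNRPC. SNRPC, the subunit that steadies the pairing of U1 with the 5′ splice site, was found at 56.3 and 53.7 CPM before serum and 43.0 and 53.2 after it in siControl, 47.6 and 39.5 before and 56.9 and 55.1 after in siPFDN2, and 48.8 and 53.4 before and 80.4 and 77.0 after in siPFDN5. The siPFDN5-labelled pair after serum was the highest of the 12. Their log2 fold change against siControl after serum was 0.71 (SE 0.15, edgeR adjusted p = 0.073). SNRPA ranged over 50.9 to 69.4 CPM and SNRNP70, which binds the first stem-loop of U1 RNA, over 60.5 to 157 CPM, with the top value of SNRNP70 in the GC-deviant library.

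The Sm ring is the ring of 7 proteins that encircles the snRNA of each major snRNP except U6. SNRPB, its B subunit, was found at 148 and 142 CPM before serum and 142 and 164 after it in siControl, 149 and 162 before and 155 and 169.5 after in siPFDN2, and 121 and 118 before and 201 and 208 after in siPFDN5. SNRPD2 was found at 115 and 115 CPM before serum and 105 and 126 after it in siControl, 120.3 and 85.7 before and 133 and 140.4 after in siPFDN2, and 118 and 116 before and 191 and 208 after in siPFDN5. SNRPD1 was found at 50.5 and 50.2 CPM before serum and 73.5 and 70.4 after it in siControl, 63.9 and 37.1 before and 70.7 and 79.3 after in siPFDN2, and 63.7 and 63.5 before and 87 and 87.6 after in siPFDN5. All 7 Sm genes were higher in the siPFDN5-labelled pair after serum than in both of siControl, with log2 fold changes from 0.28 for SNRPD1 to 0.79 (SE 0.17, edgeR adjusted p = 0.073) for SNRPD2, and a median of 0.41. The same held for 30.6% of all genes. None passed the test with all libraries in the fit. SNRPE, SNRPF and SNRPG ranged over 24.2 to 90.5, 15.3 to 39.0 and 15.3 to 69.4 CPM, with the lowest value of each in the GC-deviant library. Sm genes have many processed copies in the genome, and reads of a copy and of its parent could be split between them.

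Of the 12 genes of U2 and SF3, SF3B5 differed most. SF3B5, a small subunit of SF3b with a single exon and therefore no intron share, was found at 28.4 and 27.4 CPM before serum and 24.0 and 29 after it in siControl, 33.2 and 33.7 before and 35.4 and 37.5 after in siPFDN2, and 34.3 and 34.1 before and 51.4 and 56.4 after in siPFDN5. The siPFDN5-labelled pair after serum was at 2.03 times the mean of siControl after serum, with a log2 fold change of 1.02 (SE 0.14, edgeR adjusted p = 0.067). SF3B1, the SF3b subunit that holds the branch point and is often mutated in cancer, ranged over 248 to 498 CPM. SF3B2, SF3B3 and SF3B4 ranged over 143 to 286, 179 to 218 and 35.4 to 61.6 CPM, and SF3A1, SF3A2 and SF3A3 of the SF3a trimer over 67.5 to 141, 24.1 to 70.1 and 84.9 to 112 CPM. For SF3A3 the highest values were 112 and 110.5 CPM in the siPFDN5-labelled pair after serum, while for SF3A1 and SF3A2 they were in the GC-deviant library. SF3B6, which touches the branch adenosine, and U2SURP ranged over 17.4 to 70.6 and 89.5 to 205 CPM, and the U2 proteins SNRPA1 and SNRPB2 over 12.5 to 18.7 and 27.0 to 76.8 CPM.

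At the 3′ end of the intron, SF1 binds the branch point before U2 arrives. SF1 was found at 137 and 120.0 CPM before serum and 150.1 and 154 after it in siControl, 135 and 224 before and 134 and 126 after in siPFDN2, and 107 and 121 before and 108 and 126 after in siPFDN5. In the siPFDN5-labelled pair after serum it was below both siControl libraries, with a log2 fold change of −0.38. U2AF1, the small U2AF subunit that reads the AG of the splice site, had only 44 to 153 counts per library. The deposited transcript estimates gave it 1276 to 2983, and gave 992 to 4968 to U2AF1L5, a gene listed beside it whose sequence is nearly identical. Its count is therefore uncertain, and the log2 fold change of −0.83 in the siPFDN5-labelled pair after serum is a value on few counts.

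In the tri-snRNP, PRPF8, PRPF4 and PRPF3 had different patterns of level. PRPF8, the large U5 protein that cradles the active site (ENSG00000174231, chr17:1650629-1684882, minus strand, where 1 other annotated gene overlaps it), was found at 342 and 373 CPM before serum and 413 and 352 after it in siControl, 331 and 415 before and 273 and 294 after in siPFDN2, and 261 and 277 before and 187 and 215 after in siPFDN5. The siPFDN5-labelled pair after serum was the lowest of the 12, at 52.5% of the mean of siControl after serum, and no other member had a lower log2 fold change there. The log2 fold change was −0.93 (SE 0.16, edgeR adjusted p = 0.067) with all libraries in the fit and −0.92 (SE 0.099, adjusted p = 0.000298) without replicate 2 of siPFDN2 before serum. Before serum it was −0.41 under siPFDN5, with both libraries below both of siControl. Under siPFDN2 after serum it was −0.43.

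PRPF8 was also the only member that shared 15 consecutive bases with an siRNA. The stretch lies in exon 34 of 42 of its longest transcript, in coding sequence, at chr17:1656735-1656753 of GRCh38, minus strand, and is set out beside the siRNA with the shared bases in capitals.
siPFDN5: agaGAAGACAGCUGAGGAu
PRPF8: gtgGAAGACAGCTGAGGAg
The shared bases run from 4 to 18 of the siRNA, and the differences, with the base of the siRNA first and written as RNA, are A1G, G2U, A3G and U19G. Of 27632 genes tested, 4 shared at least 15 bases with siPFDN5 (0.0145%), and these were PFDN5 itself, PRPF8, AL121906.2 and AL139260.1. Their log2 fold changes against siControl before and after serum were −0.77 and −0.06 for PFDN5, −0.41 and −0.93 for PRPF8, −0.69 and −0.30 for AL121906.2, and −0.12 and 0.44 for AL139260.1. Whether the shared stretch has a part in the level of PRPF8 was not tested.

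PRPF4, the partner of PRPF3 on the U4/U6 particle, was found at 74.3 and 70.3 CPM before serum and 77.7 and 84.8 after it in siControl, 85.9 and 70.6 before and 101 and 101 after in siPFDN2, and 79.9 and 78.3 before and 128 and 125 after in siPFDN5. The siPFDN5-labelled pair after serum was the highest, at a log2 fold change of 0.64 (SE 0.14, edgeR adjusted p = 0.073) against siControl. PRPF3 was found at 39.9 and 36.0 CPM before serum and 29.6 and 30.9 after it in siControl, 39.7 and 33.3 before and 37.2 and 33.1 after in siPFDN2, and 44.9 and 40.9 before and 46.9 and 45.4 after in siPFDN5. Its difference from siControl after serum, 0.61 (SE 0.15, adjusted p = 0.075), came with siControl values that were lower after serum than before. PRPF6, PRPF31, PRPF38A, EFTUD2, SART1 and the helicase SNRNP200, which unwinds U4 from U6, ranged over 74.7 to 133, 40.4 to 71.8, 28.4 to 42.2, 99.1 to 138, 21.0 to 59.4 and 204 to 414 CPM. The top value of PRPF6, PRPF31, EFTUD2, SART1 and SNRNP200 was in the GC-deviant library, and that of PRPF38A was in a library labelled siPFDN5 after serum.

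Among the PRP19 complex and its partners, BUD31 was the member with a call over serum. BUD31 was found at 29.5 and 27.2 CPM before serum and 33.2 and 38.1 after it in siControl, 36.0 and 34.5 before and 36.1 and 43.1 after in siPFDN2, and 35.4 and 35.7 before and 54.8 and 54.4 after in siPFDN5. The siPFDN5-labelled pair after serum was at 1.53 times siControl after serum, with a log2 fold change of 0.61 (SE 0.14, edgeR adjusted p = 0.074). BCAS2 and PLRG1, subunits of the core complex, ranged over 13.4 to 53.7 and 44.8 to 92.2 CPM, and CRNKL1, XAB2 and the intron-binding helicase AQR over 24.5 to 49.2, 54.7 to 103 and 34.6 to 73.1 CPM. All 8 genes of this group had a positive log2 fold change in the siPFDN5-labelled pair after serum against siControl, with a median of 0.26. The value was positive for 46.0% of all genes. Scaled by library size only, that of CDC5L turned to −0.0297.

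The helicases DHX8, DHX15, DHX16 and DHX38 remodel or take apart the spliceosome, and SLU7 acts in the choice of the 3′ splice site. They ranged over 82.5 to 113, 143 to 294, 35.9 to 57.4, 46.0 to 76.3 and 23.6 to 49.5 CPM. None was called in any comparison, and their median log2 fold change in the siPFDN5-labelled pair after serum was 0.12.

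Per length, the Sm transcripts were spread over much of the range of the members. On the scale of exon CPM per kilobase of annotated exon, the medians over the 12 libraries were 138 for SNRPB, 90.8 for SNRPD2, 61.4 for SF3B5 and 56.0 for SF3B1. The other Sm genes had medians of 49.7 for SNRPE, 36.2 for SNRPD3, 27.4 for SNRPG, 16.0 for SNRPD1 and 10.5 for SNRPF. PRPF19, U2AF2 and CDC5L had medians of 38.6, 28.9 and 14.8. At the low end were AQR at 4.26 and SNRPA1 at 4.47, apart from the uncertain U2AF1.

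**Figure D3:**
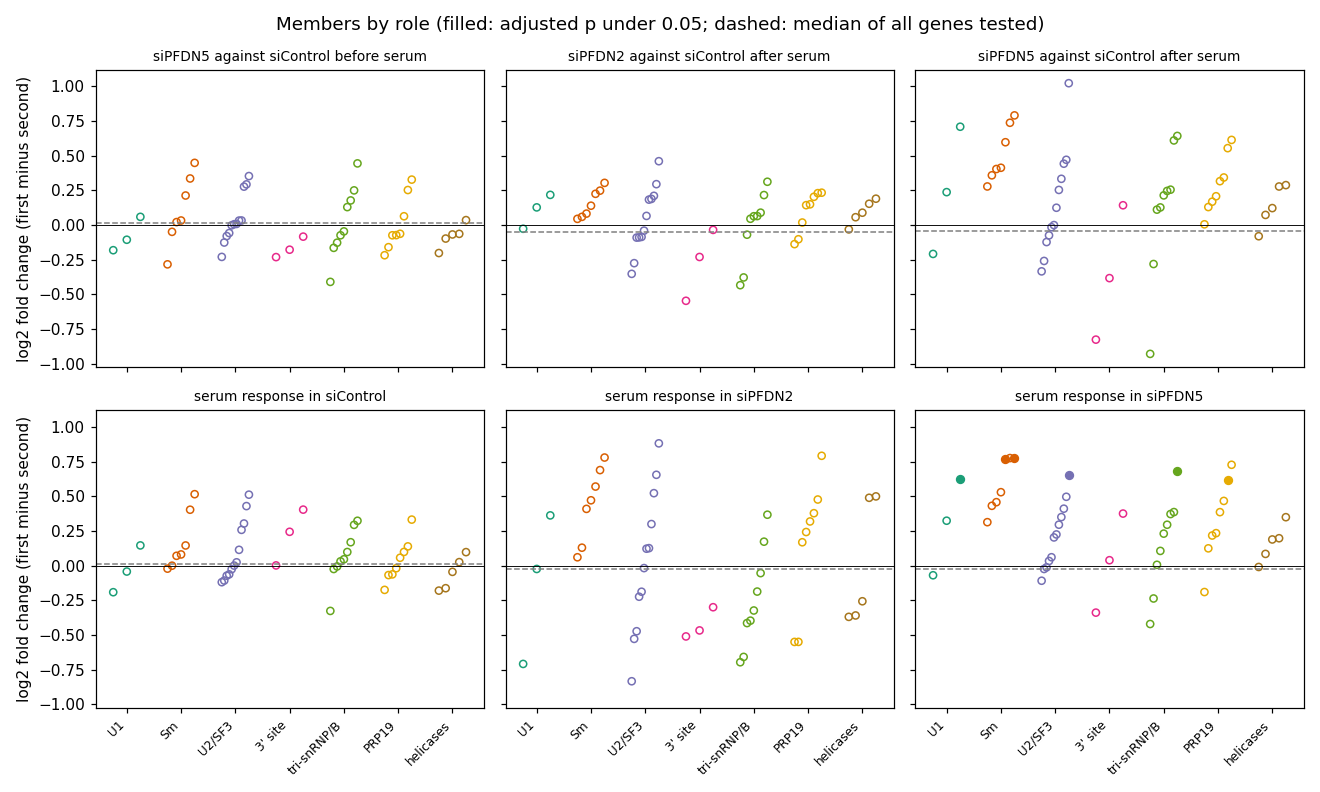
Log2 fold change of each member (points) by role in 6 comparisons, with calls at an adjusted p under 0.05 filled and the median of all genes tested as a dashed line. Among the knockdown comparisons the Sm genes run from 0.28 to 0.79 in the siPFDN5-labelled pair after serum and PRPF8 lies lowest, and the 6 filled points are all in the serum response in siPFDN5.

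Short and long members differed in the siPFDN5-labelled pair after serum. Split by annotated exon length after the values had been seen, the 15 shortest members (up to 2739 bases) had log2 fold changes from 0.00 to 1.02 there against siControl, with a median of 0.47. The 15 longest (from 5972 bases) had a median of −0.07 and a range from −0.93 to 0.25, and 7 of them were positive. The rank correlation of the log2 fold change with exon length over the 47 members was −0.71 in this comparison, and it was −0.26 over 16032 coding genes. Under siPFDN2 after serum it was −0.50 over the members and −0.18 over the coding genes. Before serum it was −0.23 under siPFDN5 and 0.10 under siPFDN2 over the members. With GC content, the correlation over the members was −0.16 in the siPFDN5-labelled pair after serum and 0.76 under siPFDN2 before serum. These are descriptions over genes of the same libraries, and the comparisons share their siControl libraries.

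The relation to length was much the same in other counts. For the siPFDN5-labelled pair after serum it was −0.69 with exon counts, −0.70 with the transcript estimates and −0.70 with the GC trend removed. RNA integrity was not among the values examined, and the part of transcript length or of RNA quality in the result was not tested.

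**Figure D4:**
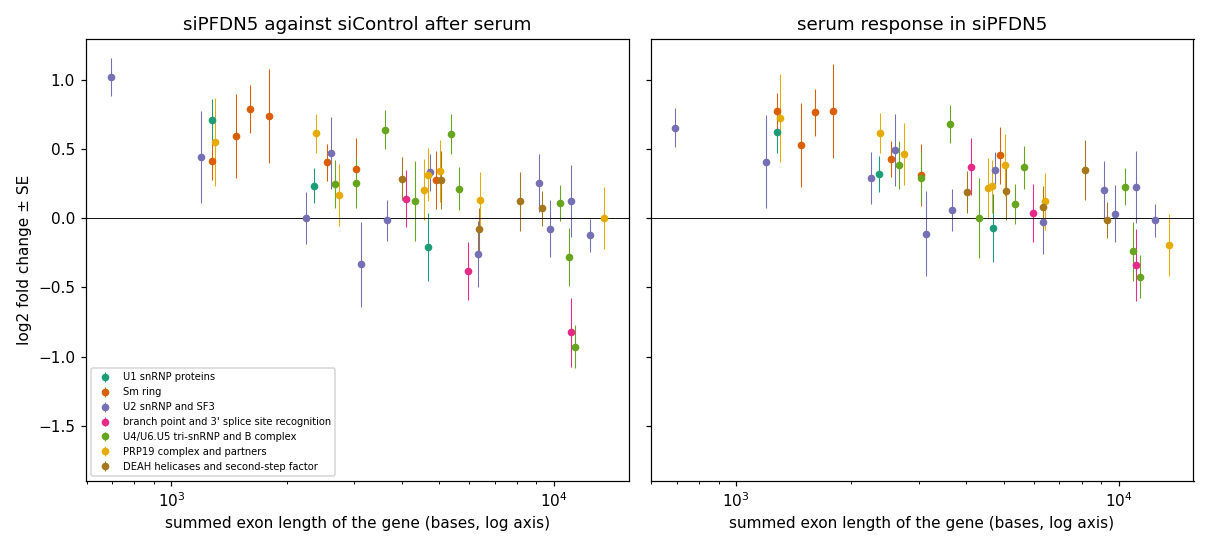
Log2 fold change with its SE for the 47 members against summed exon length on a log axis, in the siPFDN5-labelled pair after serum against siControl (left) and over serum within siPFDN5 (right). Short members such as SF3B5 lie above 0 at the left of both panels, and PRPF8, the member with the lowest value in each, lies at the right.

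Serum alone did not bring a call among the members in siControl (0 of 47, with 2.87% of all genes called) or in siPFDN2 (0 of 47, with 3.26%). At an unadjusted p under 0.05 there were 4 (12.4% of all genes) and 24 (28%), and without the GC-deviant library the 24 became 5 (14.9%). By DESeq2 none was called in siControl (3.45% of all genes were higher and 0.86% lower), and 2 were lower in siPFDN2 (6.89%). When either siPFDN2 library before serum was left out, some members were called in siControl. The share of all genes called in those fits is not given, so these calls cannot be compared with it. The medians of the members were 0.03 and 0.06, close to those of all genes at 0.01 and −0.02, and without the GC-deviant library the median in siPFDN2 was 0.01.

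Within siPFDN5, 6 of 47 members rose over serum and none fell, where 5.72% of all genes tested were called higher. They were SNRPB (log2 fold change 0.78, SE 0.13, edgeR adjusted p = 0.0078), SNRPD2 (0.77, SE 0.17, adjusted p = 0.021), PRPF4 (0.68, SE 0.14, adjusted p = 0.016), SF3B5 (0.66, SE 0.14, adjusted p = 0.019), SNRPC (0.62, SE 0.15, adjusted p = 0.028) and BUD31 (0.62, SE 0.14, adjusted p = 0.024). In each of them both libraries after serum were above both before it. The median of the 47 members was 0.29, with −0.03 over all genes. Both libraries after serum lay above both before serum for 34 members (36.8% of all genes) and below for 4 (38.9%). At an unadjusted p under 0.05 there were 14 (30.7% of all genes, either direction). The 6 calls did not hold with any 1 of the 4 siPFDN5 libraries left out, and the share of all genes in those fits is not given. Without replicate 2 of siPFDN2 before serum 29 were called higher (20.1% of all genes) and 1 lower, and after removal of the GC trend 21 were called higher (14.5% of all genes) and 1 lower. The difference of this response from that of siControl was called for none of the 47 members by edgeR (0% of all genes), with 8 at an unadjusted p under 0.05 (20.9% of all genes), and 4 were higher by DESeq2 (1.42%). For siPFDN2 the difference was also called for none (0%), with 8 at an unadjusted p under 0.05 (6.6%) and none by DESeq2.

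Averaged over the 3 siRNAs, 5 of 47 members rose with serum and none fell, where 7.6% of all genes tested were called higher. These were SNRPD1 (log2 fold change 0.51, SE 0.12, edgeR adjusted p = 0.017), PRPF4 (0.41, SE 0.080, adjusted p = 0.0070), SNRPD2 (0.39, SE 0.098, adjusted p = 0.023), BUD31 (0.37, SE 0.082, adjusted p = 0.013) and SNRPB (0.31, SE 0.077, adjusted p = 0.023). When each library was left out in turn, all 5 kept their direction, but only PRPF4 kept its call in every fit. Its log2 fold change then ran from 0.36 to 0.46. At an unadjusted p under 0.05 there were 16 members (32.7% of all genes, either direction). With the average taken over siControl and siPFDN2 only, in a fit added after the values were seen, SNRPD1 was the only member called (4.89% of all genes were called higher). SNRPD1 had log2 fold changes over serum of 0.51 in siControl, 0.57 in siPFDN2 and 0.46 in siPFDN5, and both siControl libraries after serum were above both before it. The siPFDN2 value carries the GC-deviant library, in which SNRPD1 had its lowest level of all libraries (37.1 CPM). Both averages include that library as well. In the average over the 3 siRNAs, 18 members were called higher (14.9% of all genes) and 1 lower (12.5%) without replicate 2 of siPFDN2 before serum. Without replicate 1 there were 25 higher (24.7%) and 13 lower (22.6%). Without any 1 of the other libraries there were from 1 to 7 members, all higher, beside 4.12% to 6.73% of all genes. Scaled by library size only, 2 were called higher (4.62% of all genes) and 3 lower (15.9%) on average, while within siPFDN5 3 were higher (2.78%) and none lower (8.85%).

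Many of the promoters of the members, but not all, hold a feature that no count was used to find. RefSeq (GRCh38.p14) had a window of 300 bases, from 250 before the gene start to 50 after it, for 44 of the 47 members, and none for SNRPD1, SF3B3 and PRPF3. SNRPD2 and SNRPG have 3 windows each, SNRPD3, SF3B1 and EFTUD2 have 2 each, and a member counts as holding a motif where any of its windows does. The 7 letters CCGGAAG, a core that ETS-family factors are known to bind, or their reverse complement CTTCCGG, occurred in 26 of the 44 (59.1%). They occurred in 10.3% of all 35116 windows and in the windows of 18.5% of 13379 genes tested. The windows of SNRPB, SNRPD2, SNRPC and BUD31, which rose over serum in siPFDN5, held these letters (in SNRPD2 1 window of 3), and those of SF3B5 and PRPF4, which also rose, did not. Nor did those of PRPF19 and CDC5L, while that of U2AF2 did. A match is a description of letters, and says nothing of a factor's binding.

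The 250 bases before the start are shown for the members that were called both within siPFDN5 and on average, where the letters occur, and for U2AF2. Each is written 5′ to 3′ on the strand of its gene, and capitals mark the letters. The windows are chr20:2470790-2471039 on the minus strand, chr19:45692317-45692566 on the minus strand, chr7:99408719-99408968 on the plus strand and chr19:55654785-55655034 on the plus strand.
SNRPB: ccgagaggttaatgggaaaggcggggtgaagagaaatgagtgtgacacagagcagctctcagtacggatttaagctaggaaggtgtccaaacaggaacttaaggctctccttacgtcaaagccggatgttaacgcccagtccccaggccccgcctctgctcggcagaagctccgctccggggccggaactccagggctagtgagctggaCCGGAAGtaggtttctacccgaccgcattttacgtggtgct
SNRPD2: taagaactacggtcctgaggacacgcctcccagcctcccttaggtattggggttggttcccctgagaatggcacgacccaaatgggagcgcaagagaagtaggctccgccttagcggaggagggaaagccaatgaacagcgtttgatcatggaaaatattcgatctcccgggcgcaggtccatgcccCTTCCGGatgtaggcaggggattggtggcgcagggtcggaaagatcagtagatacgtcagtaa
BUD31: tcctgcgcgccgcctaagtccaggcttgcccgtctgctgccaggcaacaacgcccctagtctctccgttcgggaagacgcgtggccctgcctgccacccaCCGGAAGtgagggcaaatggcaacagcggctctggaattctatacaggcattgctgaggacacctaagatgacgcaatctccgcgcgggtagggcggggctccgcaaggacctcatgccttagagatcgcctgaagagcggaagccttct
U2AF2: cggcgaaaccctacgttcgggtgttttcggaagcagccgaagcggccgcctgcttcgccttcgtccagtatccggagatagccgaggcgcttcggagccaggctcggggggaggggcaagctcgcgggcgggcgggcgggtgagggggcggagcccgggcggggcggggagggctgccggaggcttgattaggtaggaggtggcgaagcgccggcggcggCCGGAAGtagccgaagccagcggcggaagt
The letters begin 41 bases before the start in SNRPB, 63 in SNRPD2, 150 in BUD31 and 30 in U2AF2, and BUD31 has a second match just after its start that is not shown. The other motifs searched, on both strands, were CACGTG (an E-box, in a window of 6.82% of the 44 members and 11.6% of the genes tested), the NRF1 site (2.27% and 2.25%), TGACGTCA (a cyclic AMP response element, 0% and 3.26%), the YY1 site (2.27% and 1.85%) and TATAAA (2.27% and 9.98%). In all windows they had shares of 7.26%, 1.24%, 1.85%, 0.849% and 11.5%, and none of them occurs in the 4 sequences shown.

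Other genes of the pathway were counted in the same way. Of 76 listed genes (44 other spliceosome proteins, 7 proteins of the minor spliceosome, 21 snRNP assembly factors and 4 exon junction proteins), all were tested and none was called in any knockdown comparison. Over serum in siPFDN5, 11 rose and none fell, where 5.72% of all genes were called higher: 6 of the other spliceosome proteins, 1 of the minor spliceosome, 2 assembly factors and 2 of the exon junction complex. The largest were PHF5A, a further SF3b subunit (log2 fold change 0.83, adjusted p = 0.016), and EIF4A3, the helicase that anchors the exon junction complex (0.72, adjusted p = 0.012). None of these calls over serum in siPFDN5 held with any 1 of the 4 siPFDN5 libraries left out. Without replicate 2 of siPFDN2 before serum more of the 76 were called, as were more of all genes. Averaged over the siRNAs 7 rose and none fell, where 7.6% of all genes were called higher, led by STRAP (0.53, adjusted p = 0.0052) and PHF5A (0.44, adjusted p = 0.013). The median log2 fold change of the 76 over serum in siPFDN5 was 0.28, beside 0.29 for the 47 members and −0.03 for all genes.

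The intron share of the members was lowest in the siPFDN5-labelled pair after serum. Of the 47 members, 19 overlap no other annotated gene and had enough counts to be tested among 4031 such genes. Summed over these 19, introns held 4.75% and 4.31% of the counts in siControl before serum and 4.49% and 3.67% after it. The shares were 4.34% and 4.13% before and 4.27% and 3.18% after in siPFDN2, and 3.93% and 3.65% before and 2.26% and 2.11% after in siPFDN5. Over the 4031 genes the shares were 10.1% and 5.60% in siControl after serum and 3.56% and 3.58% in the siPFDN5-labelled pair after serum. The lower share there was thus seen over these genes as well. Summed over all genes in the tables, overlapping ones included, the shares were 20.6% and 16.2% in siControl after serum. They were 17.2% and 14.8% in the siPFDN5-labelled pair after serum, so on that sum the groups overlapped.

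Against siControl after serum, 16 of the 19 members tested were called lower in intron to exon ratio in the libraries labelled siPFDN5, and none higher, where 54.4% of all genes tested were called lower. The median log2 change was −1.06 for the members and −0.92 for all genes. SNRPC had an intron share of 3.37% and 2.86% before serum and 4.05% and 2.36% after it in siControl, 3.31% and 5.54% before and 2.91% and 1.89% after in siPFDN2, and 2.84% and 2.91% before and 1.01% and 0.911% after in siPFDN5. Its change was the largest at −1.71 (SE 0.37, edgeR adjusted p = 0.0029). SF3B6 followed at −1.48 (SE 0.43, adjusted p = 0.0087) and SNRPG at −1.44 (SE 0.43, adjusted p = 0.0097). SF3B4, U2AF1 and SNRNP200 were not called, with changes of −0.41, −0.71 and 0.01. Both libraries were below both of siControl for 17 of the 19 (80.5% of all genes tested).

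This count rested on siControl replicate 1 after serum, whose intron share was the highest of the 12 over the 4031 genes. Without it 3 of 18 members were called lower, SNRPC among them (−1.32, edgeR adjusted p = 0.032), and 10.2% of all genes. SF3B6 and SNRPG then had adjusted p-values of 0.054 and 0.098. The count was also lower without either library of the siPFDN5-labelled pair after serum. The share of all genes in those fits is not given, so this fall is not a result about the members. With exon and intron counts scaled separately the count of members was 0 (0.323% of all genes called lower). When overlapping genes were tested as well, 29 of 46 members with introns were lower (42.1% of 16134 genes).

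Over serum, the intron to exon ratio of the members was called for none in siControl (0 of 19, 4.22% of all genes, and 0 members at an unadjusted p under 0.05). In siPFDN2 1 member, SNRPE, was called lower at −1.43 (SE 0.38, edgeR adjusted p = 0.029), where 4.42% of all genes were. SNRPE did not keep its call without replicate 2 of siPFDN2 before serum, a fit for which the share of all genes is not given. Within siPFDN5 12 of the 19 were lower, where 57.5% of all genes were, with SLU7 at −1.75, SNRPC at −1.61 and SF3B6 at −1.61. The medians there were −0.93 for the members and −0.98 for all genes. Scaled separately, none was called (7.14% of all genes lower), and with overlapping genes 27 of 46 were (47.6%). The serum change differed between siPFDN5 and siControl for 8 of the 19, all lower in siPFDN5, where 43.3% of all genes were lower. Before serum no member differed from siControl under siPFDN2 (0% of all genes called, with 2 members at an unadjusted p under 0.05) or siPFDN5 (0%, with 1), and none did under siPFDN2 after serum (0%, with 0).

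**Figure D5:**
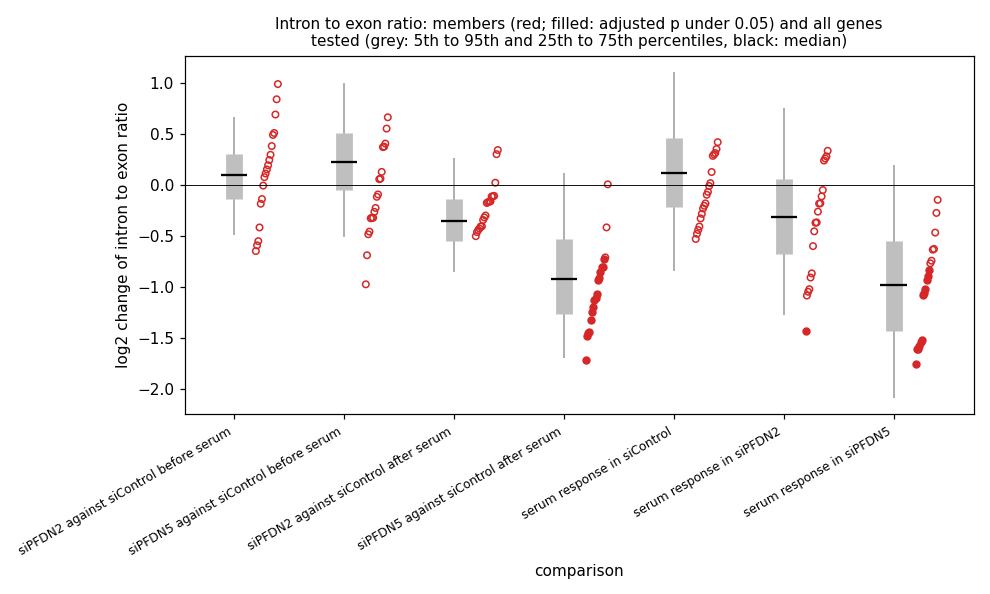
Log2 change of the intron to exon ratio in 7 comparisons for the 19 members tested (red, filled where the adjusted p is under 0.05) beside all 4031 genes tested (grey bars and lines for percentiles, black for the median). The members follow these genes, with 16 filled points in the siPFDN5-labelled pair after serum against siControl and 12 over serum within siPFDN5.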

How the data were processed

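RNA of 12 HCT116 libraries was sequenced, 2 in each of 6 groups set by the labels. The authors deposited fragment counts for each gene, both over its exons and over its full body, made with featureCounts 1.5.2 on Ensembl release 87 with no strand option, per the file headers. HISAT2 0.12.2 and kallisto 0.43 are named in the submitters' processing notes. The deposited transcript tables hold estimated counts, which were summed per gene and rounded. Because strand was not used and a fragment could be counted for several genes, reads of overlapping or antisense genes cannot be told apart. A further 6 columns of the count tables belong to no sample given here and were not used.

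Gene-body counts were tested with edgeR 4.0.16 (quasi-likelihood, TMM scaling, filterByExpr, R 4.3.3) in 1 model of the 6 group means, 12 comparisons, two-sided, with Benjamini-Hochberg adjustment over 27915 genes and calls at an adjusted p under 0.05. CPM used TMM-scaled library sizes. Intron counts were gene-body minus exon counts. Changes of the intron to exon ratio were tested as interactions of intron with group, with a term per library, in 4031 genes that overlap no other gene and had at least 10 intron and 10 exon counts on average. The scripts were tested on simulated counts. The median biological coefficient of variation was 17.4%.

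The members, the other gene lists, the named-gene rule and the tests were chosen with earlier results of these data known. All members could be named, PRPF19, CDC5L and U2AF2 were given in every library, and up to 2 called genes per direction were named from the other lists. Members were also described in full after their values were seen. Gene names and GC content came from GENCODE 29 and promoters from RefSeq. DESeq2 1.42.0, other scalings, filters, counts, a GC correction, a replicate block and leaving out each library were tried.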

Additional observations from a re-analysis of the deposited data

Results flagged for a closer look

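For 8 of the 19 members tested, the change of the intron to exon ratio over serum differed between siPFDN5 and siControl. This was a test of the difference itself, an intron-by-group contrast added after the values were seen (edgeR, adjusted over 4031 genes). The difference in log2 units, siPFDN5 minus siControl, was −1.60 for SNRPC (adjusted p = 0.0176), −1.82 for SNRPG (adjusted p = 0.0210), −1.19 for SF3A3 (adjusted p = 0.0419), −1.54 for SF3B6 (adjusted p = 0.0410), −1.23 for PRPF3 (adjusted p = 0.0306), −1.60 for XAB2 (adjusted p = 0.0349), −1.48 for BCAS2 (adjusted p = 0.0261) and −2.10 for SLU7 (adjusted p = 0.0050). Of all genes tested 43.3% were lower by the same test, so the count of members is near the share of all genes. With exon and intron counts scaled separately none of the members passed it. The test was not repeated with a library left out. It uses siControl replicate 1 after serum, with an intron share of 10.1% over these genes beside 5.60% in replicate 2. It also uses the siPFDN5-labelled pair after serum, in which PFDN5 was not low.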

How the results depend on the processing

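Each group has 2 libraries, and the GC-deviant replicate 2 of siPFDN2 before serum widens the spread that all comparisons share. The counts of called members therefore depend on which libraries and which scaling enter. The cause of each change was not tested. Counts of members called under the alternatives are given here and below without the share of all genes called, which changed as well. Over serum in siPFDN5, for example, 5.72% of all genes were called higher, and 14.5% with the GC trend removed. The counts therefore show how the calls depend on the processing, and are not results about the members. Without a filter on low counts there were 7 for siPFDN2 against siControl before serum, 9 for siPFDN5 against siControl after serum, 13 for siPFDN5 against siPFDN2 before serum, 16 over serum in siPFDN2, 9 in siPFDN5, 11 on average, and 4 and 2 for the differences of the serum response of siPFDN2 and siPFDN5 from siControl. DESeq2 gave 9, 9, 2, 7, 10 and 4 for siPFDN5 against siControl after serum, siPFDN5 against siPFDN2 before serum, serum in siPFDN2, serum in siPFDN5, the average and the difference for siPFDN5. With the GC trend removed there were 14 for siPFDN5 against siControl after serum, 1 for siPFDN5 against siPFDN2 before serum, 1 over serum in siControl, 22 in siPFDN5, 18 on average and 2 for the difference for siPFDN5. With only the groups compared in the fit there were 14 and 11 for siPFDN5 against siControl before and after serum, 20 for siPFDN5 against siPFDN2 after serum, 2 and 34 over serum in siControl and siPFDN5, and 15 for the difference. Library size alone gave 4 over serum in siPFDN2 and 3 in siPFDN5, and moved the median of all genes by −0.16 in siPFDN5 against siControl after serum. Over serum in siPFDN5, exon counts gave 5 and transcript estimates 4. The average over siControl and siPFDN2 only, added after seeing the data, gave 1.

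Leaving out 1 library at a time, the counts ran from 0 to 36 and 0 to 4 for siPFDN2 and siPFDN5 against siControl before serum, 0 to 1 and 0 to 29 after serum, and 0 to 38 and 0 to 11 for siPFDN5 against siPFDN2 before and after serum. They ran from 0 to 6, 0 to 38 and 0 to 30 over serum in siControl, siPFDN2 and siPFDN5, from 1 to 38 on average, and from 0 to 40 and 0 to 21 for the differences. For the intron share they ran from 0 to 1 for both knockdowns before serum, stayed 0 for siPFDN2 after serum and over serum in siControl, and ran from 2 to 16 for siPFDN5 after serum, 0 to 5 over serum in siPFDN2 and 5 to 14 in siPFDN5. With exon and intron counts scaled separately, the counts of members lower in siPFDN5 after serum and over serum in siPFDN5 were 0 and 0. With a minimum of 50 intron and 50 exon counts they were 14 and 10. With overlapping genes tested as well they were 29 and 27, and over serum in siPFDN2 the count was 0.

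The labels do not say whether equal replicate numbers pair libraries of different groups. Over 15 pairs of groups the correlation of same-numbered deviations ran from −0.32 to 0.59 and was over 0.1 in 4. Whether some groups share a batch is not known. With the replicate block, 6 members were called over serum in siPFDN5, 5 on average and 0 in the other comparisons of abundance, and the intron share was called for 15 and 12 members in siPFDN5 after serum and over serum, and for 0 over serum in siPFDN2. With the replicate block and the GC trend removed there were 7, 1, 20 and 16 for siPFDN5 against siControl after serum, serum in siControl, serum in siPFDN5 and the average.

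For 67 single values there were 1252 alternatives, of which 1021 kept direction and call, 77 gained a call, 109 lost it and 45 turned direction. For PRPF19, separate scaling turned the intron to exon change to 0.23 for siPFDN2 and 0.14 for siPFDN5 after serum, and to 0.29 over serum in siPFDN5. Leaving out a library gave −0.35 to 0.15 for siPFDN2 after serum and −0.16 to 0.64 over serum in siPFDN2. For CDC5L, the GC correction turned the fold change of siPFDN2 before serum to 0.00059 (0.00075 with the replicate block) and that over serum in siPFDN2 to −0.0119 (−0.0119 with the block). Library size alone gave CDC5L −0.0297 for siPFDN5 after serum and −0.0290 over serum in siPFDN5. Separate scaling gave the intron change of CDC5L as 0.0582 for siPFDN2 after serum and −0.15 over serum in siControl. Without a library its fold changes ran from −0.69 to 0.0929 for siPFDN2 and −0.14 to 0.0041 for siPFDN5 before serum and −0.0177 to 0.77 over serum in siPFDN2. Its intron changes ran from −0.65 to 0.20 for siPFDN2 after serum and −0.41 to 0.43 over serum in siControl. For U2AF2, the fold change of siPFDN2 after serum turned to 0.0063 with the GC correction (0.0061 with the replicate block), and library size alone gave −0.0123 for siPFDN5 after serum. Over serum in siControl U2AF2 had −0.0698 with library size alone, −0.0091 with DESeq2, −0.0227 without a filter, −0.0049 with the replicate block and −0.0059 with only the groups compared. Separate scaling gave its intron change as −0.11 for siPFDN5 before serum and 0.14 for siPFDN2 after serum. Without a library U2AF2 ran from −0.0564 to 0.0590 for siPFDN2 after serum and −0.0944 to 0.0936 over serum in siControl. Its intron change ran from −0.0047 to 0.26 for siPFDN5 before serum, −0.43 to 0.16 for siPFDN2 after serum and −0.57 to 0.0139 over serum in siPFDN2.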
